A study of Homo sapiens with 24 samples.

Results

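The 42 genes described here encode proteins of DNA replication and of mitosis. They were chosen by symbol, by function and not by their values, and each is represented by the first entry of its symbol among 36468 entries of the count table. All 42 were found, 19 of replication and 23 of mitosis, and all 42 were among the 29377 entries with a total of at least 10 counts that were tested. The cultures were sensory neurons grown from H9 (labelled H9WAO9), a line of human embryonic stem cells of genotype WT, by way of spheroids of vagal neural crest cells. After maturation, cultures of 6 batches of differentiation received vehicle, 2 ng/ml of TGF-β, IL-4 at 10 ng/ml with IL-13 at 3 ng/ml, or IL-6. Exposure to the first 3 of these lasted 5 days, and the vehicle was bovine serum albumin in PBS. The dose and the time of IL-6 are not given in the sources used here. PolyA RNA was sequenced as 1 library for each treatment and batch, 24 in all. All 4 groups share the line, so no second line or clone stands beside it. The RNA came from whole cultures, of which only some cells were neurons by the flow cytometry of the study.

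Before a cell divides, the MCM2 to MCM7 helicase is loaded onto origins by CDC6 and CDT1, is started with CDC45 and GINS, and opens the DNA for polymerases that are held by the PCNA clamp. At mitosis, CDK1 with its cyclins drives entry, the kinetochore ties chromosomes to the spindle, and proteins such as UBE2C end the phase. Most of these genes are transcribed mainly in cycling cells and little in neurons, which have left the cycle, so their level is used as a measure of dividing cells in a mixed culture. In bulk RNA, fewer dividing cells and less of these transcripts per dividing cell cannot be told apart.

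The libraries held between 33342682 and 39817784 counts each, and the 42 genes were detected in every library, down to 3 counts of CENPA in vehicle of batch 6. One group of libraries stood apart: the 3 treated libraries of batch 2, which carried far more of these transcripts than the other 21. The vehicle library of batch 2 did not share this. Over 20960 entries, the deviations of libraries of 1 batch correlated with a median of 0.62 (36 pairs), but those of the vehicle library of batch 2 correlated with its own treated libraries at a mean of 0.03, against 0.47 with the treated libraries of batch 4 and 0.43 with those of batch 3. These correlations are a description over shared entries. Whether this library belongs to its labelled batch cannot be told from the labels, so results that rest on batch 2 are given with and without it. Neuronal markers were present in all libraries. The pluripotency genes POU5F1 and ZFP42 never exceeded 3 counts. POU5F1 was read from its first entry only, although its symbol occurs again among the entries.

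The promoters of the members are shown for what the 2 sets of genes share apart from the count data. Of the 42 genes, 36 matched an entry in a table of RefSeq promoters (GRCh38.p14), each of 300 bases, 250 before and 50 after the first listed start. In these windows 3 motifs known from cell cycle promoters were searched on both strands. They were the site of the E2F factors (TTTCCCGC, TTTCGCGC, TTTGCCGC or TTTGGCGC), the cell cycle homology region, CHR (TTTGAA), and the CCAAT box (CCAAT). An E2F match was found in 12 of 17 replication genes and in 2 of 19 mitosis genes, against 3.33% of all 27305 promoters. A CHR match was found in 1 of 17 replication genes and in 13 of 19 mitosis genes, against 15.4% of all promoters. CHR and CCAAT stood together in 10 of 19 mitosis genes, against 6.08% of all. MCM2 and PCNA are printed as replication genes and MKI67 and TOP2A as mitosis genes, 5′ to 3′ along the gene, with every motif match in capitals. In MCM2 an E2F match on each strand overlaps the other, and in MKI67 a CHR overlaps a CCAAT box. A match is a description of these letters and not a bound site.
MCM2 (chr3:127598161-127598460, strand +): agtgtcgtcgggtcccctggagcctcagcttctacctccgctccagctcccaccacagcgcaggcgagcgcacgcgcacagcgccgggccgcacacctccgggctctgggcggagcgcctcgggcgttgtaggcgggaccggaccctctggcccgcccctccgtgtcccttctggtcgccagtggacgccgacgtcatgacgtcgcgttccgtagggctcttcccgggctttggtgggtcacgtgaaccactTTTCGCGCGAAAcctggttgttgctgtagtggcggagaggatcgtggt
PCNA (chr20:5126573-5126872, strand -): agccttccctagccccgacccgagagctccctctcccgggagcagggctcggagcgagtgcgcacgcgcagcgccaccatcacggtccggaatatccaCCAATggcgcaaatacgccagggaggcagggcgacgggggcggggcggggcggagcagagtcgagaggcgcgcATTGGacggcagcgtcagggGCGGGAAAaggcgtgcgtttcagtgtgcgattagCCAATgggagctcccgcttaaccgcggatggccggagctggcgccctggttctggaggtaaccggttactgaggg
MKI67 (chr10:128126374-128126673, strand -): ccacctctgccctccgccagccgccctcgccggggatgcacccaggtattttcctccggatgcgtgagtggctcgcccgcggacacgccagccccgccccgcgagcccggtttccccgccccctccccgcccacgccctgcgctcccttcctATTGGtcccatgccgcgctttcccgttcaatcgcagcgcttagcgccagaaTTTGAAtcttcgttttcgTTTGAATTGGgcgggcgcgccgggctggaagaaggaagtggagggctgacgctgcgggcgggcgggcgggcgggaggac
TOP2A (chr17:40417847-40418146, strand -): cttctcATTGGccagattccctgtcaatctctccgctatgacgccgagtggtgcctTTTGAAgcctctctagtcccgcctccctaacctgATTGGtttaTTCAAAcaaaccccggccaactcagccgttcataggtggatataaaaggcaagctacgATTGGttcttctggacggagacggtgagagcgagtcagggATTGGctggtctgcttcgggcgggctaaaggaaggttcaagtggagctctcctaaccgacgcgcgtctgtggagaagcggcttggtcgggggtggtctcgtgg

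The MCM2 and PCNA windows held an E2F match and no CHR, whereas those of MKI67 and TOP2A held CHR and no E2F match. The 2 sets of genes also differed in how far their levels spread over the libraries. Over the 24 libraries, the highest level of a replication gene was a median of 5.06 times its lowest, and that of a mitosis gene 25.4 times. Without batch 2 these ratios were 2.44 and 7.16.

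The level of a gene is given in CPM, its counts relative to the size of the library after TMM scaling. CPM do not compare 1 gene with another, since transcripts differ in length. Summed over the 42 genes, the vehicle libraries of batches 1 to 6 stood at 336, 376, 263, 594, 435 and 357 CPM. The TGF-β libraries stood at 374, 1339, 337, 365, 337 and 434 CPM. Those of IL-4+IL-13 stood at 523, 1636, 318, 360, 654 and 447 CPM. Those of IL-6 stood at 560, 1557, 330, 513, 370 and 419 CPM. Apart from the 3 treated libraries of batch 2, all libraries lay between 263 and 654 CPM, and the 4 groups overlapped. The vehicle library of batch 2 lay within the range of the 5 other vehicle libraries.

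**Figure D1:**
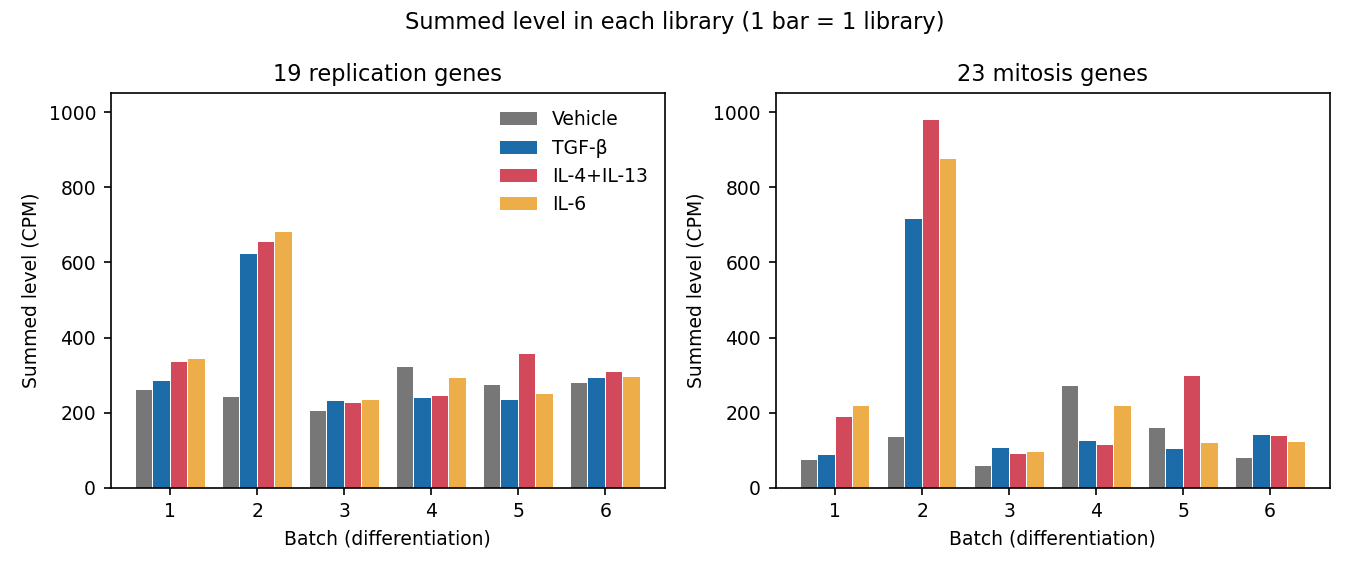
Summed level in CPM (vertical axis) of the 19 replication genes (left) and the 23 mitosis genes (right) in each of the 24 libraries, by batch (horizontal axis) and treatment (colour). The 3 treated libraries of batch 2 reached 623 to 681 CPM for replication and 716 to 981 CPM for mitosis, above all other libraries, which did not exceed 355 and 299 CPM.

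All 3 treated libraries of batch 2 lay above all 21 others for 41 of the 42 genes, every one except BUB1B. Over all 29377 entries this held for 9.03%. They were more than 2-fold above the vehicle library of their batch for 38 genes (6.28% of all entries), all but RFC4, POLA1, FEN1 and RRM1. The vehicle library of batch 2 lay below its 3 treated libraries for 42 genes (32.2% of all entries) and within the range of the 5 other vehicle libraries for 39 (78.4% of all entries). The mean of the 3 treated libraries over vehicle in batch 2 was a median of 3.48-fold for replication and 6.18-fold for mitosis. It ran from 1.65-fold for RRM1, the large subunit of ribonucleotide reductase, to 11.2-fold for UBE2C, a ubiquitin-conjugating enzyme of mitotic exit.

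**Figure D2:**
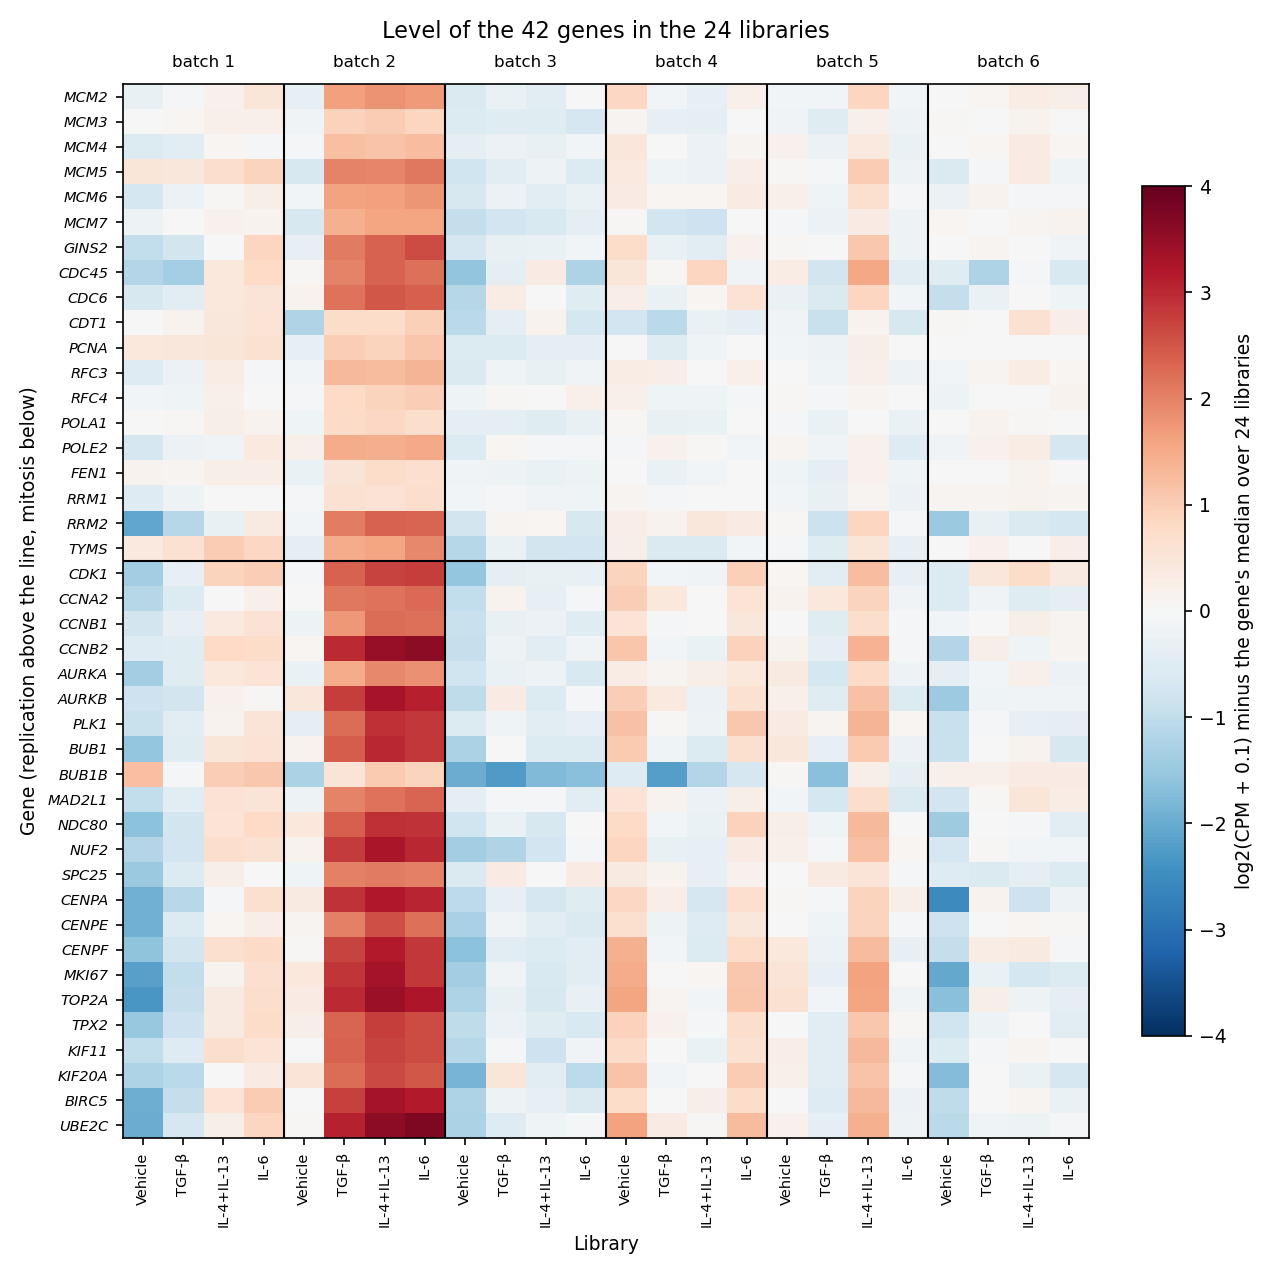
Level of each of the 42 genes (vertical axis) in each of the 24 libraries (horizontal axis, in 6 batches), as log2(CPM + 0.1) minus the median of the gene. The treated libraries of batch 2 form a red block, vehicle of batch 4 and IL-4+IL-13 of batch 5 are above the other libraries of their batches for most genes, and BUB1B departs from the other genes in batches 1 and 3.

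Among the genes that load and form the replicative helicase, MCM2 stood at 6.94 to 18.5 CPM in vehicle, with a median of 9.002 over 6 libraries. In batch 2 it was at 8.26 CPM in vehicle, 32.3 in TGF-β, 35.95 in IL-4+IL-13 and 33.9 in IL-6. The treated libraries of batch 2 were thus the highest, and the vehicle library of batch 2 was not. Over vehicle in batch 2, the 10 genes of this role had a median ratio of 4.355, from 2.09-fold for MCM3 to 6.81-fold for GINS2, a subunit of the GINS complex. CDC6, which loads the helicase, was at 3.59 CPM in vehicle of batch 2 and at 15.1 to 18.5 in its treated libraries, against at most 5.93 elsewhere. CDT1, its partner in loading, was the member of this role that followed the other 41 least across the 24 libraries (r = 0.59 with the mean of the others, a description without a test).

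The genes of the polymerases, the clamp and nucleotide supply had the smallest median ratio in batch 2, 2.50. PCNA ranged from 23.7 to 46.7 CPM in vehicle with a median of 33.4. In batch 2 it was at 27.45 CPM in vehicle, 69.2 in TGF-β, 65.0 in IL-4+IL-13 and 74.5 in IL-6. Its batch 1 libraries, at 46.7 to 53.0 CPM, came next. FEN1, which trims the ends of Okazaki fragments, spanned 19.98 to 42.95 CPM over all libraries, a factor of 2.15 and the smallest of the 42. RRM2, the subunit of ribonucleotide reductase that is made in cycling cells, spanned a factor of 23.8 instead. It was at 4.56 CPM in vehicle of batch 2 and at 20.5, 25.6 and 25.2 in TGF-β, in IL-4+IL-13 and in IL-6, and at no more than 9.02 in any other library.

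Of the cyclins and kinases of mitotic entry, CDK1 stood at 2.02 to 11.6 CPM in vehicle, with a median of 5.01. In batch 2 it was at 5.86 CPM in vehicle, 31.9 in TGF-β, 40.8 in IL-4+IL-13 and 42.01 in IL-6. CCNB1, its cyclin partner, was at 11.3, 44.0, 61.7 and 60.5 CPM in the same order. The treated libraries of batch 2 were above all others for both genes, which did not exceed 14.5 and 21.1 CPM elsewhere. AURKB, the kinase of the chromosomal passenger complex, was at 1.70 CPM in vehicle of batch 2 and at 8.95, 12.9 and 11.4 in TGF-β, in IL-4+IL-13 and in IL-6, while its 6 vehicle libraries had a median of 1.04 CPM. CCNB2, the other B-type cyclin of the list, had the largest ratio of this role in batch 2, 10.0-fold.

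Genes of the kinetochore, the centromere and the spindle checkpoint had a median ratio of 5.30 over vehicle in batch 2, from 4.37-fold for BUB1B to 7.68-fold for NUF2, a subunit of the NDC80 complex. CENPF, a kinetochore protein of late cycle stages, was at 10.96 CPM in vehicle of batch 2 and at 70.4, 97.2 and 76.5 in TGF-β, in IL-4+IL-13 and in IL-6. BUB1B, which encodes the checkpoint kinase BUBR1, had another pattern. It was at 32.1 CPM in vehicle of batch 1, its highest level, and at 5.64 CPM in vehicle of batch 2 with 19.6 to 28.7 in the treated libraries of batch 2. In batch 3 it lay at 2.76 to 4.25 CPM in all 4 libraries. Its r with the mean of the other 41 genes was 0.47, the lowest of the list, where the median was 0.95. The span of BUB1B overlaps that of BUB1B-PAK6, a readthrough gene, which was listed at 0 to 7.78 CPM, and the assignment of reads between both entries is uncertain.

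Chromosome, spindle motor and exit genes had the widest spread. MKI67, which encodes the proliferation marker Ki-67, stood at 1.92 to 25.6 CPM in vehicle, with a median of 7.73. In batch 2 it was at 12.1 CPM in vehicle, 65.7 in TGF-β, 92.2 in IL-4+IL-13 and 65.6 in IL-6. TOP2A, the topoisomerase that untangles sister chromosomes, was at 28.5, 178, 244 and 211 CPM in the same order. Both were highest in the treated libraries of batch 2 and lowest in vehicle of batch 1, where they stood at 1.92 and 4.40 CPM. The 7 genes of this role spanned a median factor of 43.45 over the 24 libraries. SPC25 and the genes MCM2, MCM7, GINS2, PCNA, POLA1, RRM2, TYMS, CCNA2, PLK1, BUB1B and KIF20A, 12 in all, overlap the span of another RefSeq gene. With the strandedness of the libraries not given in the sources used here, reads in such overlaps could belong to either gene. SPC25 also has a second entry in the table, which was not used.

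Within each batch, every treated culture was set against the vehicle culture of that batch, which the 3 ratios of a batch share. In batch 1, the median log2 ratio over the 42 genes was 0.41 with TGF-β, 1.14 with IL-4+IL-13 and 1.37 with IL-6. In batch 2 it was 2.05, 2.36 and 2.30, in batch 3 0.67, 0.49 and 0.53, and in batch 6 0.47, 0.57 and 0.30, in the same order. In these 4 batches the median was above 0 for each treatment. Batch 4 went the other way: 41 of the 42 genes were below vehicle with TGF-β, 38 with IL-4+IL-13 and 35 with IL-6, with medians of -0.61, -0.80 and -0.17. In batch 5, TGF-β and IL-6 were below vehicle for 40 and 38 genes, with medians of -0.40 and -0.25, whereas IL-4+IL-13 was above vehicle for 42 of 42, with a median of 0.83. Over all entries the median log2 ratio of each pair was 0, and between 41.2% and 48.9% of entries were above vehicle.

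In each of these 18 pairs of libraries the median of the mitosis genes lay farther from 0 than that of the replication genes. For IL-4+IL-13, the medians of replication and mitosis were 0.51 and 1.86 in batch 1, 1.75 and 2.78 in batch 2, and -0.30 and -1.13 in batch 4. MKI67 shows the pattern. It was at 1.92, 3.40, 13.05 and 2.14 CPM in vehicle of batches 1, 3, 5 and 6 and at 10.0, 5.91, 27.8 and 5.56 CPM in IL-4+IL-13, but at 25.6 CPM in vehicle and 9.48 in IL-4+IL-13 of batch 4. Its vehicle level in batch 4 was the highest of the 6.

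**Figure D3:**
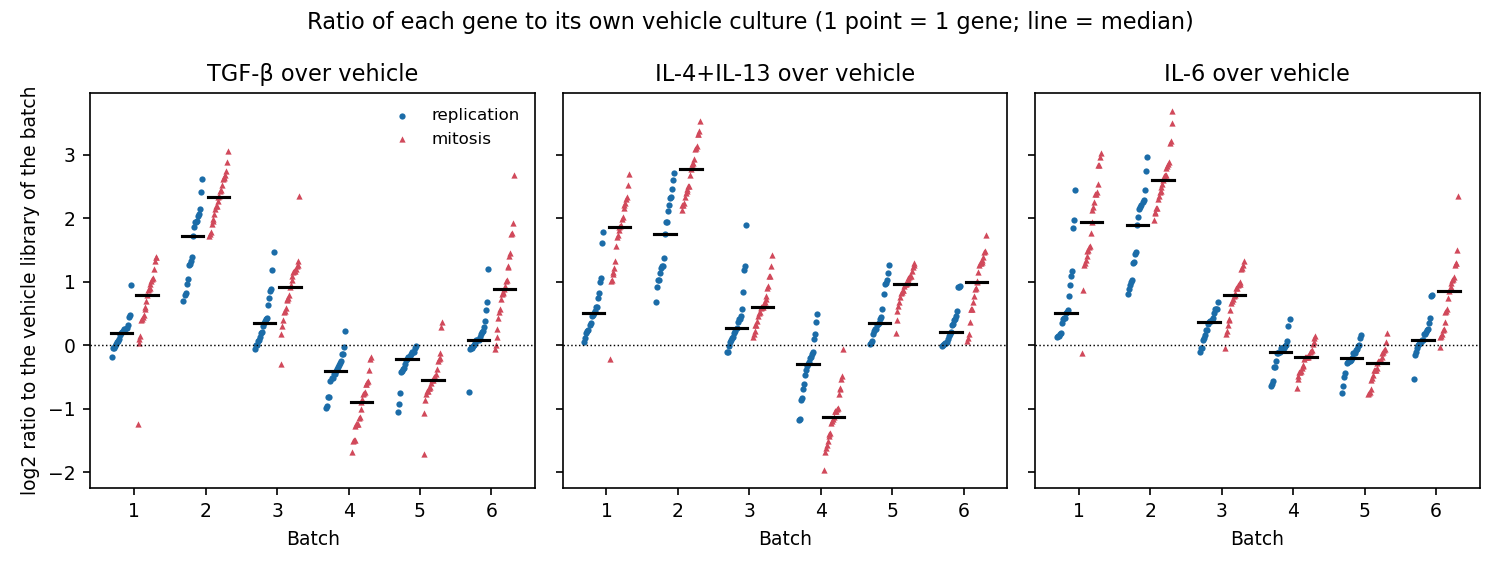
Log2 ratio of each gene to the vehicle library of its batch (vertical axis) by batch (horizontal axis), with a panel for each treatment and with circles for replication genes, triangles for mitosis genes and lines at their medians. The points lie above 0 in batch 2, mostly below 0 in batch 4 and, in batch 5, above 0 for IL-4+IL-13 and mostly below 0 for the others, and the highest point of each panel in batch 6 is CENPA, which had 3 counts in that vehicle library.

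The comparison of TGF-β with vehicle asks whether this cytokine changed the genes over all 6 batches. None of the 42 genes passed edgeR's quasi-likelihood test at an adjusted p under 0.05, where 0.347% of all entries did. No member reached an unadjusted p under 0.05 (7.29% of all entries did), nor a call by DESeq2. The smallest adjusted p of edgeR was 0.70. The fitted log2 fold change had a median of 0.35 and was above 0 for 41 of 42 genes, against 47.4% of all entries. Without batch 2 none was called (0.46% of all entries), the median was 0.05 and 26 genes were above 0 (48.4% of all entries), and without the vehicle library of batch 2 alone it was 0.05 with 26 genes above 0 (48.1% of all entries). With batch in the model, leaving out that vehicle library removes the direct comparison with vehicle in batch 2. The treated libraries of batch 2 stay in that fit and still enter it indirectly. The share of genes above 0 thus rested on batch 2. These fits cannot tell the part of its vehicle library from that of its treated library.

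Under TGF-β the highest fitted changes were those of CENPA, the centromeric histone (0.93, SE 0.50), KIF20A, a kinesin of cytokinesis (0.70, SE 0.45), and SPC25 of the NDC80 complex (0.65, SE 0.31). The lowest were those of BUB1B (-0.61, SE 0.32), FEN1 (0.02, SE 0.12) and MCM3 (0.04, SE 0.15). MKI67 had 0.55 (SE 0.51), TOP2A 0.54 (SE 0.54), CDK1 0.55 (SE 0.41), AURKB 0.53 (SE 0.42), RRM2 0.64 (SE 0.35), CCNB1 0.22 (SE 0.27), MCM2 0.16 (SE 0.28) and PCNA 0.09 (SE 0.15). The smallest unadjusted p of the list was 0.053, for SPC25 and CDC6.

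In the comparison of IL-4+IL-13 with vehicle, none of the 42 genes passed edgeR's test either, against 0.633% of all entries. An unadjusted p under 0.05 was reached by 20 genes, 7 of replication and 13 of mitosis (9.10% of all entries). DESeq2 called 1, CDC6, and its share of calls over all entries is not given here. All 42 fitted changes were above 0 (48.5% of all entries), with a median of 0.78. Without batch 2 none was called (0.809% of all entries), the median was 0.52, 40 genes were above 0 (49.5% of all entries) and 8 had an unadjusted p under 0.05 (8.32% of all entries). Without batch 4 the median was 1.11, and CDC6 (adjusted p = 0.046 by edgeR) and CENPE, a kinetochore motor (0.036), were called (0.689% of all entries). The median thus depended on which batch was left out.

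CDC6 had the smallest adjusted p under IL-4+IL-13, 0.14 by edgeR (log2 fold change 1.05, SE 0.28, higher in 5 of 6 batches) and 0.018 by DESeq2. Its vehicle libraries stood at 1.40 to 3.92 CPM with a median of 2.34, and its IL-4+IL-13 libraries at 3.20 to 18.5 CPM with a median of 3.89. The groups overlapped. CDC45, which activates the loaded helicase, had a log2 fold change of 1.30 (SE 0.42) and was higher in 6 of 6 batches, as was RRM2 (1.06, SE 0.34). CDC45 was at 0.281 to 1.49 CPM in vehicle and at 1.00 to 5.63 in IL-4+IL-13, which also overlapped. BIRC5, which encodes survivin, had the largest fitted change (1.31, SE 0.44), followed by CDC45 and CDK1 (1.18, SE 0.41).

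MKI67 had a log2 fold change of 1.00 (SE 0.50) under IL-4+IL-13, TOP2A 0.97 (SE 0.54), AURKB 0.88 (SE 0.42), CCNB1 0.69 (SE 0.27), MCM2 0.40 (SE 0.29) and PCNA 0.23 (SE 0.15). The smallest changes were those of POLA1, the catalytic subunit of DNA polymerase α (0.13, SE 0.12), RFC4, a subunit of the clamp loader (0.18, SE 0.13), and BUB1B (0.18, SE 0.31). The median change was 0.40 for the replication genes and 0.89 for the mitosis genes.

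IL-6 was set against vehicle in the same fit. None of the 42 genes passed edgeR's test, and of all entries 0 passed (0%). DESeq2 called none of the 42, and edgeR called none without batch 2 (0% of all entries). An unadjusted p under 0.05 was reached by 12 genes, against 4.77% of all entries, and by 1 gene without batch 2 (2.13% of all entries). The median change was 0.61, with all 42 above 0 (47.3% of all entries), and 0.32 with 38 above 0 (48.1% of all entries) without batch 2. The highest were CENPA (1.26, SE 0.50), UBE2C (1.12, SE 0.50) and BIRC5 (1.11, SE 0.44). The lowest were MCM3 (0.11, SE 0.15), POLA1 (0.12, SE 0.12) and BUB1B (0.16, SE 0.31). CDK1 had 1.04 (SE 0.40), MKI67 0.92 (SE 0.50), RRM2 0.91 (SE 0.35), TOP2A 0.89 (SE 0.54), AURKB 0.70 (SE 0.42), CCNB1 0.60 (SE 0.27), MCM2 0.39 (SE 0.28) and PCNA 0.27 (SE 0.15), all with an adjusted p of 0.85 by edgeR. The 3 comparisons with vehicle share their 6 vehicle libraries, and the vehicle library of batch 2 enters each of them.

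**Figure D4:**
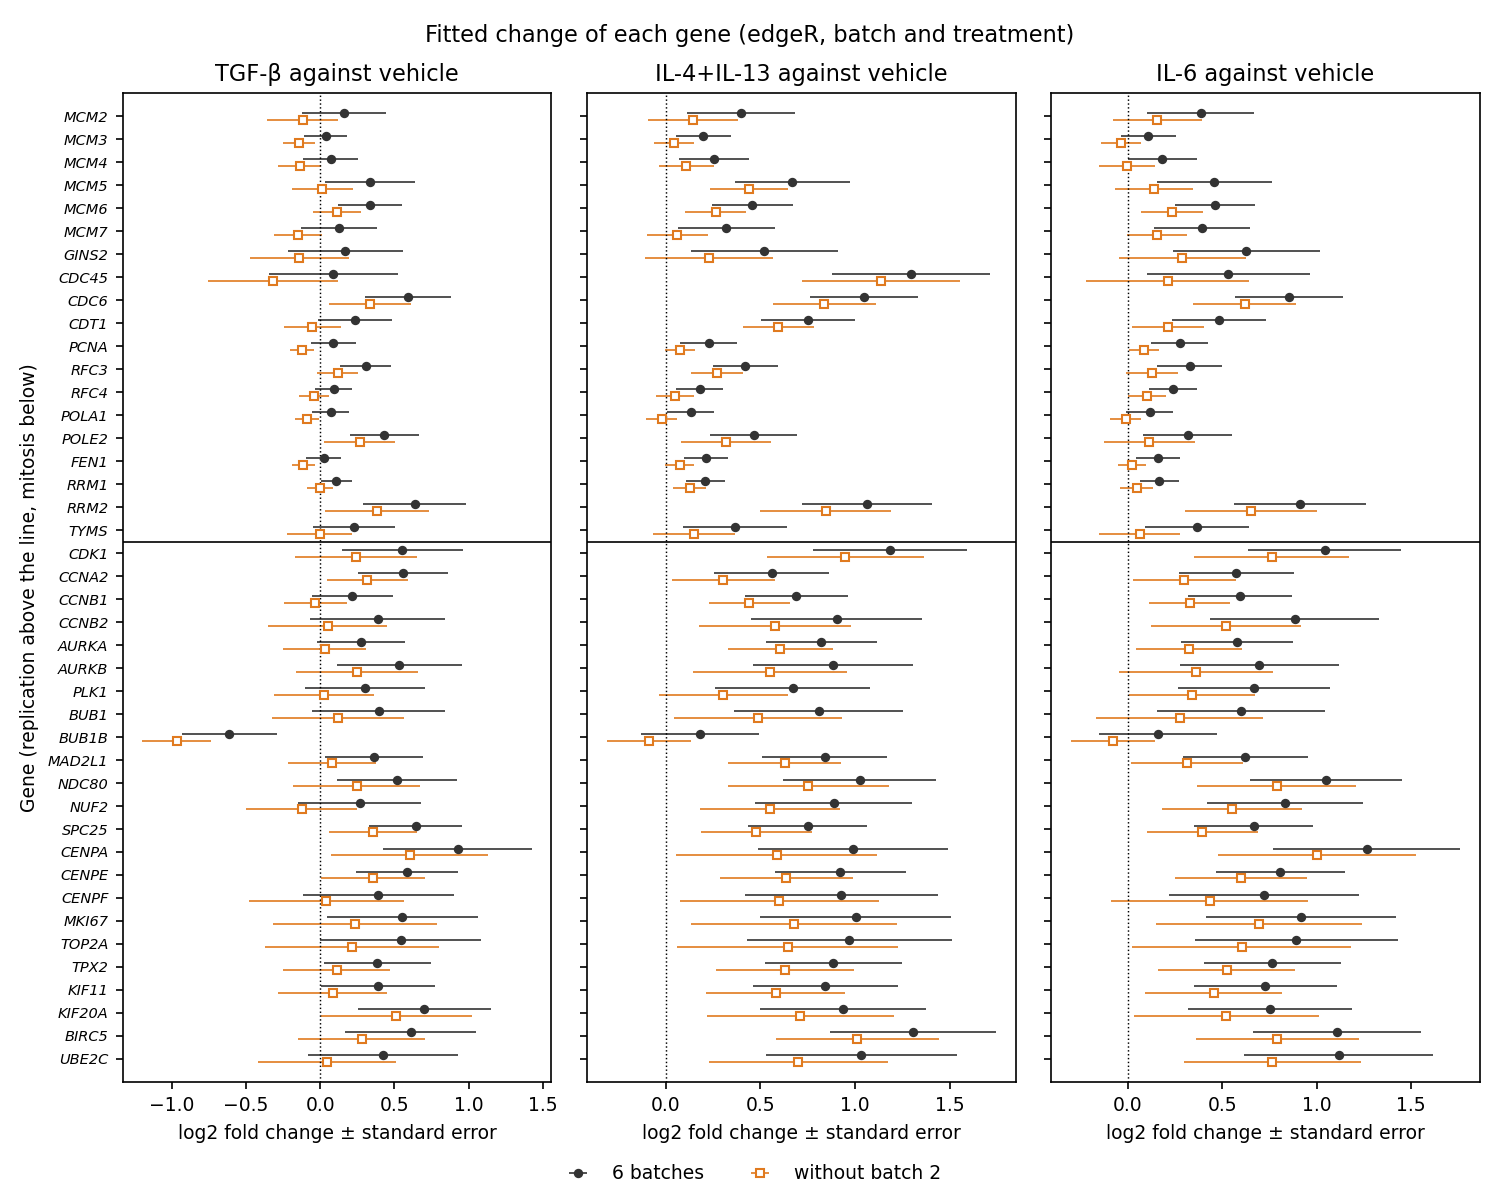
Fitted log2 fold change against vehicle with its standard error (horizontal axis) of each of the 42 genes (vertical axis), in all 6 batches (filled circles) and without batch 2 (open squares). Medians over the 42 genes were 0.35, 0.78 and 0.61 in 6 batches, in the order of the panels (TGF-β, then IL-4+IL-13, then IL-6), and 0.05, 0.52 and 0.32 without batch 2.

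The vehicle libraries are not part of the contrast when TGF-β is set against IL-4+IL-13. All 42 fitted changes were then below 0, with a median of -0.36, while 49.1% of all entries were above 0. None of the 42 passed edgeR's test (2.98% of all entries), 3 reached an unadjusted p under 0.05 (12.2% of all entries), and no call came from DESeq2. The strongest was CDC45 (-1.21, SE 0.42, adjusted p = 0.16 by edgeR), which was lower under TGF-β in 6 of 6 batches. BUB1B was also lower under TGF-β in 6 of 6 batches (-0.79, SE 0.32, adjusted p = 0.27 by edgeR). Without batch 2, BUB1B was called (-0.88, adjusted p = 0.038 by edgeR, 4.92% of all entries called), and so it was without the vehicle library of batch 2 (-0.81, adjusted p = 0.023, 4.93% of all entries called). In batch 5, BUB1B was at 4.22 CPM in TGF-β and 16.05 in IL-4+IL-13, and the readthrough BUB1B-PAK6 at 7.78 and 0.055. In batch 4 both entries were lower in TGF-β, at 2.93 against 5.98 CPM and at 0 against 2.63. The part of read assignment in this difference was not tested. Over the 4 groups together, edgeR called none of the 42 (1.81% of all entries), and no call came from DESeq2. An unadjusted p under 0.05 was reached by 6 of the 42, against 2827 of all 29377 entries.

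The batches themselves were compared with treatment in the model. All 42 genes passed, where 56.8% of all entries did, so a call over batches was common for any gene. Batch means differed most for MKI67 (3.24 on the log2 scale between the highest and the lowest batch), CENPA (3.24) and NUF2 (3.15), and least for FEN1 (0.63), RRM1 (0.63) and RFC4 (0.69). Without batch 2, 12 of the 42 passed (53.6% of all entries). These were MCM3, MCM5, MCM6, MCM7, CDT1, PCNA, POLA1, FEN1 and TYMS of replication and CCNA2, PLK1 and BUB1B of mitosis. Replication held 9 of these calls among its 19 genes, near the 53.6% of all entries, and mitosis 3 among its 23, below that share.

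Batch 1 was set against the mean of the other batches, since earlier results of these data had set it apart. PCNA (0.47, SE 0.14), TYMS, thymidylate synthase (0.62, SE 0.24), and BUB1B (1.36, SE 0.27) were higher in batch 1, and RRM2 (-0.93, SE 0.35) and CCNA2, cyclin A2 (-0.76, SE 0.30), were lower. These 5 calls compare with 44.4% of all entries. Without batch 2, 8 genes were called (48.0% of all entries), all higher in batch 1: MCM3, MCM5, CDT1, PCNA, POLA1, FEN1, TYMS and BUB1B. PCNA stood at 46.7, 47.3, 48.4 and 53.0 CPM in the 4 libraries of batch 1 (vehicle, then TGF-β, IL-4+IL-13, IL-6), above each of the 17 libraries outside batch 1 and treated batch 2. MKI67, at 1.92, 4.55, 10.0 and 14.4 CPM in the same order, was not set apart (-0.95, SE 0.49, adjusted p = 0.13 by edgeR).

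Other genes of the same pathways were taken from lists that hold none of the 42. Of 30 other replication genes and 42 other mitosis genes, none passed against vehicle for any treatment by edgeR. Under IL-4+IL-13, 7 and 24 had an unadjusted p under 0.05 (9.10% of all entries). The median changes of these lists under IL-4+IL-13 were 0.24 and 0.74, with 29 of 30 and 41 of 42 above 0 (48.5% of all entries). Without batch 2 they were 0.11 and 0.47, with 25 and 40 above 0 (49.5% of all entries). In treated batch 2, 25 of 30 and 41 of 42 lay above all 21 other libraries (9.03% of all entries). As among the 42 genes, the median was larger for mitosis. Of 11 genes of entry into the cycle (G1 cyclins, their kinases, CDC25A, MYC and MYCN), none passed against vehicle by edgeR, with 1 gene at an unadjusted p under 0.05 for TGF-β and 2 for each of the other treatments. Without batch 2, MYC, a transcription factor that promotes cell growth, was called higher under TGF-β (0.48, SE 0.10, adjusted p = 0.047 by edgeR), and without the vehicle library of batch 2 alone it was not (0.46, adjusted p = 0.052).

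Among 20 genes of E2F, FOXM1 and DREAM regulators, factors that control the transcription of cell cycle genes, 1 passed under IL-4+IL-13. It was E2F7, an atypical E2F that represses E2F targets (log2 fold change 1.26, SE 0.18, adjusted p = 0.0011 by edgeR), higher in 6 of 6 batches. Its vehicle libraries stood at 17.8, 4.45, 4.35, 4.48, 5.46 and 8.75 CPM in batches 1 to 6, and its IL-4+IL-13 libraries at 35.9, 16.4, 9.57, 10.6, 11.3 and 23.4 CPM. In batch 4, where 38 of the 42 genes were below vehicle, E2F7 was above it. Without batch 2 its change was 1.18 (adjusted p = 5.3e-05 by edgeR). Under TGF-β and IL-6 the change of E2F7 was 0.22 and 0.34 in all 6 batches and -0.061 and 0.19 without batch 2, and none of these was called. Against TGF-β it was higher under IL-4+IL-13 as well (-1.05 for TGF-β against IL-4+IL-13, adjusted p = 0.0022 by edgeR).

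Of 7 CDK inhibitors, CDKN2B, which encodes p15 and holds back the G1 kinases, fell under IL-4+IL-13, with a log2 fold change of -0.68 (SE 0.13, adjusted p = 0.014 by edgeR). It was lower than vehicle in batches 1, 2, 3, 5 and 6 and higher in batch 4, at 429, 109, 92.9, 76.1, 110.5 and 129 CPM in vehicle of batches 1 to 6 and 204, 46.1, 55.5, 81.0, 71.7 and 90.6 CPM in IL-4+IL-13. Without batch 2 the change was -0.57 and the call was lost (adjusted p = 0.060 by edgeR), whereas without the vehicle library of batch 2 alone it was kept (-0.61, adjusted p = 0.037). In the comparison of TGF-β with IL-4+IL-13, KIF18A, a kinesin at the ends of kinetochore microtubules, was lower under TGF-β (-1.09, SE 0.24, adjusted p = 0.014 by edgeR), CDKN2B higher (0.86, SE 0.13, adjusted p = 0.00069) and E2F3 higher (0.31, SE 0.080, adjusted p = 0.040). All 3 of these calls also held without batch 2, where RPA1, TFDP1 and CDKN1C were called lower and MYC higher as well (-0.28, -0.20, -0.53 and 0.49).

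Markers of the cell types that such a culture could hold also differed between vehicle and treated libraries in batch 2, and not all genes of a list went the same way. The 11 neuronal markers were all tested, and their summed level in batch 2 was 6261 CPM in vehicle and 4337 to 4710 CPM in the treated libraries. Against vehicle of batch 2, the mean of the treated libraries was 0.271 times for ISL1, 0.375 for SNAP25, 0.473 for NEFM and 0.509 for SLC17A6. It was 0.613 times for UCHL1, 0.634 for PRPH, 0.714 for STMN2 and 0.995 for POU4F1. Only TUBB3 (1.38 times), ELAVL3 (1.52 times) and ELAVL4 (1.34 times) were higher. The 8 markers of neural crest and neural progenitors summed to 616 CPM in vehicle and to 999.8 to 1026 CPM in the treated libraries, above the 454.5 to 669 CPM of the 20 libraries outside batch 2, a difference carried by NES (2.42 times vehicle) and SOX2 (9.11 times), the 2 of the 8 genes that were above all other libraries. PAX6 (0.306 times, below all 21 other libraries), TFAP2A (0.537 times), TFAP2B (0.591 times) and PAX3 (0.614 times) were lower than in vehicle of batch 2. The 9 markers of fibroblasts and mesenchyme, mostly COL1A1 and COL1A2, summed to 8292 CPM in vehicle and to 3712 to 4827 CPM in the treated libraries.

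The pluripotency list, of which 4 of 6 genes were tested, summed to 19.9 CPM in vehicle of batch 2. In the treated libraries of batch 2 it summed to 51.95 to 55.9 CPM. These sums were mostly DPPA4 (3.42 times vehicle), whereas LIN28A was lower (0.464 times) and NANOG was at 0 throughout batch 2. The defining genes POU5F1 (first entry) and ZFP42 were at or near 0. Batch 1 stood apart in other lists. Its neuronal markers summed to 1386 to 2381 CPM against 2759 to 7828 CPM elsewhere outside batch 2, and all 11 were called lower. Its 5 epithelial markers, mostly the keratins KRT8 and KRT18, summed to 544 to 1018 CPM, with 4 called higher and 1 lower, and EPCAM stood at 16.8 to 21.3 CPM in batch 1 and at 17.8 to 45.6 elsewhere. Its 5 smooth muscle markers, mostly TAGLN and ACTA2, summed to 789 to 1710 CPM, with 3 called higher and 1 lower, and DES stood at 0.756 to 1.20 CPM in batch 1 and at 1.83 to 12.03 elsewhere. The part of these cell types in the results for the 42 genes was not tested.

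**Figure D5:**
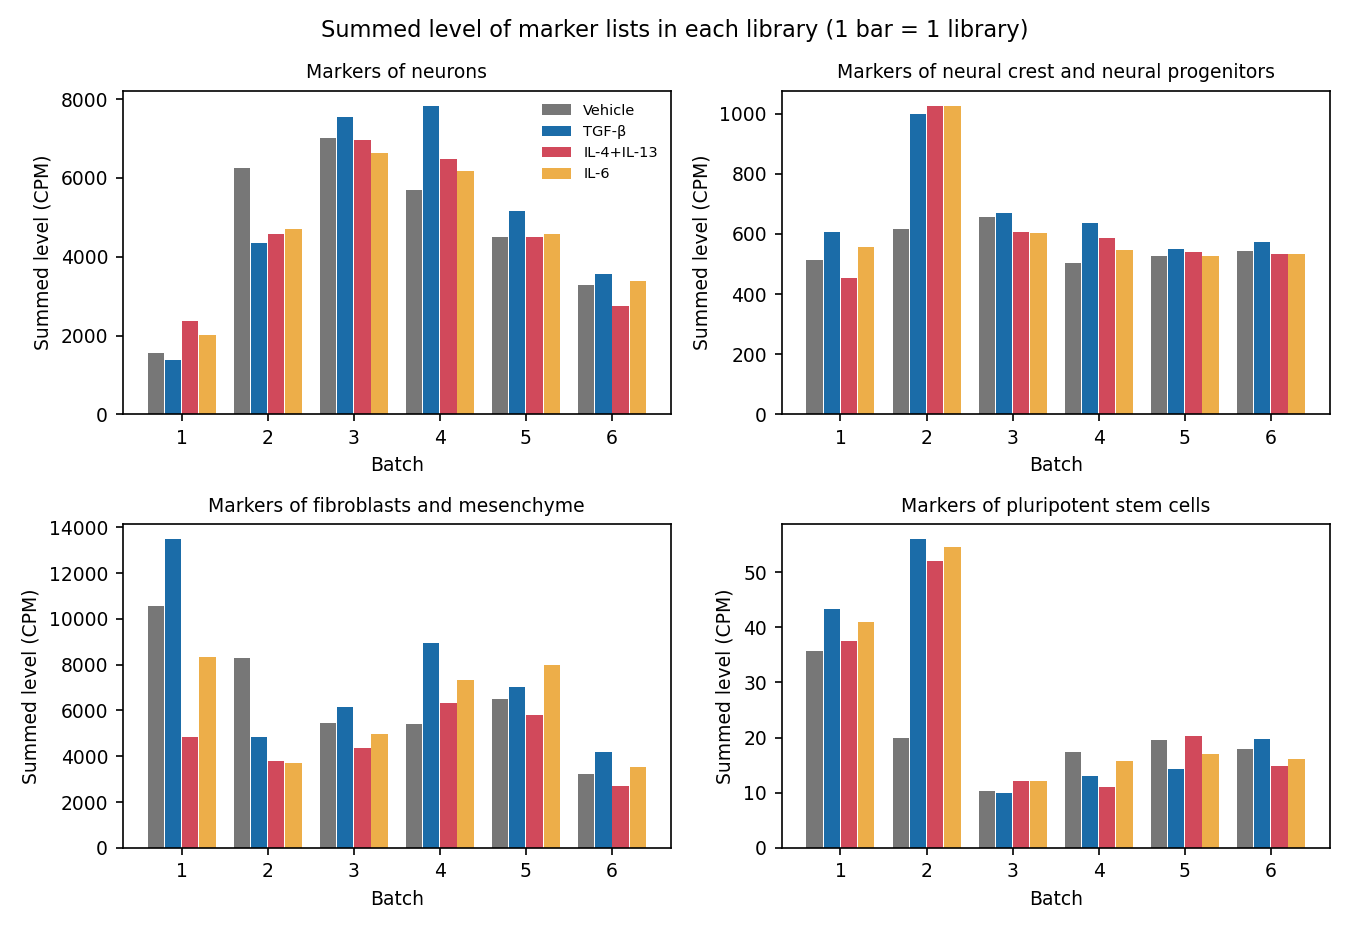
Summed level in CPM (vertical axis) of markers of neurons, of neural crest and neural progenitors, of fibroblasts and mesenchyme and of pluripotent stem cells in each library, by batch (horizontal axis) and treatment (colour). The sum of the progenitor markers, of which NES and SOX2 were higher and PAX6, PAX3, TFAP2A and TFAP2B lower, reached 999.8 to 1026 CPM in the treated libraries of batch 2 against 616 CPM in its vehicle library, and neuronal markers were lowest in batch 1.

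The lists also checked the treatments. Under IL-4+IL-13, targets of this signalling rose: ALOX15 was at no more than 0.538 CPM in vehicle and at 126 to 436 CPM in IL-4+IL-13 (adjusted p = 1.3e-10 by edgeR), CCL26 at no more than 0.141 and at 5.81 to 56.4 CPM (1.6e-06), and CISH at 0.786 to 1.92 and at 11.3 to 32.6 CPM (7.1e-06). In all, 4 of the 8 response genes passed, whereas none of the 8 passed under TGF-β or IL-6 by edgeR, with 2 and 0 at an unadjusted p under 0.05. The IL-4+IL-13 libraries thus carried a response to their labelled treatment while none of the 42 genes passed in them, and the label of IL-6 had no such check. The replicates are batches of differentiation of 1 line. With batch in the model, p-values for treatments are set against the spread of treatment differences within batches. Those for differences between batches are set against the spread between cultures of 1 differentiation.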

How the data were processed

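PolyA RNA of 24 libraries was counted per gene. The deposited values are raw counts that the authors made after trimming with Trimmomatic 0.30 (per the labels) on GRCh38.p14, which the labels call a mouse reference although it is a human build. The aligner, the counter and the strandedness are not given in the sources used here. Of 36468 entries, 13161 are unnamed loci and 4886 share a symbol with another.

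Entries with a total of at least 10 counts were tested with edgeR 4.0.16 in R 4.3.3 (TMM, robust quasi-likelihood F test, batch and treatment as terms, all 24 libraries, Benjamini-Hochberg over 29377 entries). Calls were made below an adjusted p of 0.05. CPM used TMM library sizes, and ratios within a batch were taken on log2(CPM + 0.1). DESeq2 1.42.0, other scalings, filters and left-out libraries were alternatives. The statistics were tested on simulated data. Precision was limited by 33342682 to 39817784 counts per library and by 6 batches.

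The labels give the batch, so libraries were paired by it. Deviations correlated at a median of 0.62 within batches (lowest -0.045) and -0.16 between them. No pair of libraries of 1 group or 1 batch agreed within sampling noise.

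Named throughout were MCM2, PCNA, RRM2, MKI67, TOP2A, CDK1, CCNB1 and AURKB, with each gene called or, where fewer than 3 were called, the 3 highest and 3 lowest changes. Genes named beyond this were chosen after their values were seen. The 42 genes, the lists and the contrasts were chosen with earlier results of these data known. Promoter windows came from RefSeq (GRCh38.p14). No promoter was at hand for MCM4, MCM5, AURKA, TPX2, BIRC5 and UBE2C.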

Additional observations from a re-analysis of the deposited data

Results flagged for a closer look

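In each group of 6 libraries, a library was singled out where its gap to the next exceeded Dixon's 95% critical value, which chance alone passes in about 1 of 20 groups. Of 44 groups tested over 11 quantities, 30 held such a library, and the quantities are not independent of each other. The 3 treated libraries of batch 2 accounted for 29 of them.

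The summed level of all 42 genes was 1339.0 CPM in TGF-β, 1636.4 in IL-4+IL-13 and 1557.1 in IL-6 of batch 2. For replication genes it was 623.01, 655.69 and 680.66 CPM, and for mitosis genes 715.98, 980.73 and 876.47 CPM, in the same order. RRM2 stood out at 20.48, 25.56 and 25.17 CPM, CDK1 at 31.89, 40.77 and 42.01, and CCNB1 at 44.0, 61.72 and 60.51. AURKB stood out at 8.948, 12.93 and 11.41 CPM, MKI67 at 65.71, 92.18 and 65.57, and TOP2A at 178.3, 244.0 and 210.6. MCM2 stood out at 32.33 CPM in TGF-β and 33.89 in IL-6 of batch 2, and at 18.53 CPM in vehicle of batch 4, the one library outside batch 2. PCNA held none.

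The batches also differed in direction. The summed level of the 42 genes was 0.6149 with TGF-β, 0.606 with IL-4+IL-13 and 0.8633 with IL-6, as a ratio to vehicle, in batch 4. In the same order it was 1.113, 1.556 and 1.667 times vehicle in batch 1, 3.558, 4.349 and 4.138 in batch 2, 1.284, 1.21 and 1.255 in batch 3, and 1.214, 1.251 and 1.173 in batch 6. The 3 ratios of a batch share 1 vehicle library, and the difference between batches was not tested.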

How the results depend on the processing

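These comparisons were limited by 6 cultures a group, by 1 line, by the spread between batches and, for genes with few counts, by depth. The count of the 42 genes called was 0 under every alternative run for TGF-β, for IL-6 and over the 4 treatment groups. For IL-4+IL-13 it was 1 with DESeq2 and 0 to 2 with a batch left out (2 without batch 4, against 0.689% of all entries). Over batches it was 12 to 42 with a batch left out (12 without batch 2, against 53.6% of all entries) and 10 in batches 3 to 6. For batch 1 it was 1 with a fold over 2 (5074 of 29377 entries), 11 with DESeq2 and 3 with no filter on low counts. It was 4 to 8 with a batch left out (8 without batch 2, against 48.0% of all entries). Without the vehicle library of batch 2 it was 13 (13931 of 29271 entries), and without the IL-6 libraries 3. With all 24 libraries, edgeR called 56.8% of all entries over batches and 44.4% for batch 1. In this section, no share of all entries is given for DESeq2, batches 3 to 6, no filter on low counts or the fit without IL-6. The counts from those fits are therefore not read as results about the 42 genes. The direct comparison, chosen after seeing the data, gave 1 without batch 2 (4.92% of all entries), in batches 3 to 6 and without the vehicle library of batch 2 (4.93%). The cause of these shifts was not tested. Medians against vehicle were above 0 under every alternative, from 0.0046 to 0.68 for TGF-β, 0.28 to 1.11 for IL-4+IL-13 and 0.098 to 0.95 for IL-6.

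Without the replicate block, that is without batch in the model, the medians were 0.68, 1.06 and 0.95 in the same order, and no gene was called, as with it.

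Some small changes of single genes turned below 0 without batch 2, in batches 3 to 6 and without the vehicle library of batch 2, given in that order. For TGF-β these were MCM2 (-0.12, -0.19, -0.10), PCNA (-0.12, -0.14, -0.098), CCNB1 (-0.032, -0.10, -0.040), FEN1 (-0.11, -0.12, -0.12) and MCM3 (-0.14, -0.18, -0.13). For IL-4+IL-13 they were POLA1 (-0.021, -0.076, -0.014) and BUB1B (-0.089, -0.038, -0.098), and RFC4 in batches 3 to 6 (-0.0084). For IL-6 they were MCM3 (-0.037, -0.083, -0.049), POLA1 (-0.011, -0.037, -0.027) and BUB1B (-0.079, -0.052, -0.12). None was called in any of these fits. With a batch left out, the highest values under TGF-β were 0.47, 0.22, 0.44, 0.091 and 0.14 for MCM2, PCNA, CCNB1, FEN1 and MCM3. Under IL-4+IL-13 they were 0.23 and 0.38 for POLA1 and BUB1B, and under IL-6 0.17, 0.19 and 0.29 for MCM3, POLA1 and BUB1B.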
